A study of Mus musculus with 27 samples.

Results

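The 9 genes described here encode steps that supply glycerol 3-phosphate to adipocytes and join it to fatty acids: Pck1, Gpd1, Aqp7, Gpam, Agpat2, Lpin1, Dgat1, Dgat2 and Mogat1. They were chosen by gene name, 9 of the 43460 names in the count table, and all 9 were among the 17821 names that passed the filter on low counts. Their transcripts were measured by RNA sequencing of mouse epididymal white adipose tissue, the fat pad beside the epididymis.

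Adipocytes store fatty acids as triglyceride, which needs glycerol 3-phosphate as a backbone. Adipose tissue can make this through reduction of dihydroxyacetone phosphate by Gpd1. The dihydroxyacetone phosphate can come from glucose or from non-sugar precursors. The non-sugar route, called glyceroneogenesis, runs through the cytosolic phosphoenolpyruvate carboxykinase Pck1 and also ends with the Gpd1 step. Aqp7 is a channel through which glycerol crosses the adipocyte membrane. Gpam adds the first acyl chain to glycerol 3-phosphate, Agpat2 adds the next, Lpin1 removes the phosphate to give diacylglycerol, and Dgat1 and Dgat2 add the last acyl chain. Mogat1 makes diacylglycerol from monoacylglycerol. Gpam, Agpat2, Lpin1, Dgat1, Dgat2 and Mogat1 are called the 6 esterification genes below.

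All mice were C57BL/6N, and each of the 9 groups had 3 libraries. The initial group was 5 weeks old. The control groups ate normal diet for 8, 12 or 16 weeks, to an age of 13, 17 or 21 weeks (control8, control12, control16). The gain8 group spent 8 weeks on high-fat diet (fat as 60% of kcal) and was 13 weeks old. After high-fat feeding, normal diet was given for 4 weeks in the loss group, 17 weeks old, and for 8 weeks in maintenance, 21 weeks old. The regain group was fed the high-fat diet again for 4 weeks after weight loss and was 21 weeks old. The gain4 group, also 21 weeks old, ate the high-fat diet for 4 weeks, and the labels do not give its diet before that. The gain4, regain and maintenance groups share the control16 libraries, so their comparisons are not independent. The labels do not say that the libraries of a group came from separate animals, so p-values measure only the spread between these libraries, which may be technical.

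Libraries held 26479773 to 32728594 counts. Levels are TMM-scaled CPM, reads of a gene relative to the size of its library, and a gene was called in a comparison where edgeR's quasi-likelihood test gave a Benjamini-Hochberg adjusted p under 0.05 over all 17821 genes. The summed level of 10 adipocyte markers was at least 8592 CPM in each library, with none of the 10 at 0. Maintenance library 3 stood apart: its summed level of 16 liver markers was 8981 CPM, against 22.2 to 179 CPM in the other 26 libraries. That library also had the highest sum of 7 brown adipocyte markers, 122 CPM against at most 38.4 CPM elsewhere. Its sum of macrophage markers was the lowest, at 607 CPM. Loss library 1 had the lowest adipocyte sum (8592 CPM) and the highest sum of macrophage markers (11608 CPM), and control12 library 3 had the highest sum of efferent duct markers (310 CPM). In bulk tissue, fewer cells of a type and less RNA per cell cannot be told apart.

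The promoters of Pck1 and Mogat1 are shown because these were the 2 members called lower in each of gain8, loss and regain. Both are 300-base windows from RefSeq (GRCm38.p6), from 250 bases before the annotated start to 50 bases after it, on the plus strand, and the capitals mark 1 motif match in each.
Pck1, chr2:173152823-173153122: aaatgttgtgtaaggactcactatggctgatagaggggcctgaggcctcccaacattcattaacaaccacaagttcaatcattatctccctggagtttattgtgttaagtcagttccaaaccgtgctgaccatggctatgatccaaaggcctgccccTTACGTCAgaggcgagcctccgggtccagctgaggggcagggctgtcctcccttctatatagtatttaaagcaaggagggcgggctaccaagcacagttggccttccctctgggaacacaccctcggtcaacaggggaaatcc
Mogat1, chr1:78510810-78511109: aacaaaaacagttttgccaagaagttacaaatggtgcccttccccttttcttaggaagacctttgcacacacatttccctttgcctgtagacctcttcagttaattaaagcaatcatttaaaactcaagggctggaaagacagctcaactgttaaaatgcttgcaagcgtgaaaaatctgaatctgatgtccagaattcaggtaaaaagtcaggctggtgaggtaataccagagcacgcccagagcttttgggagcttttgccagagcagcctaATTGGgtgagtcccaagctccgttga
The capitals in the Pck1 window are TTACGTCA, at position -93 from the start, a variant of the cAMP response element. The search listed these letters as the Pck1 form of the element, so a match in Pck1 was fixed in advance. They lay in 164 of 32851 windows of the same length (0.499%), counting both strands, and overlap the half-site TGACG, found in 20.8% of windows. The Pck1 window also holds GGGCGG, a GC box left in lower case, at position -16, a motif in 35.7% of windows. The consensus TGACGTCA was in 1.79% of all windows. The capitals in the Mogat1 window are the reverse complement of CCAAT, a motif in 37.4% of windows. This match lies after the annotated start, at position 25. These matches describe the letters only. Pck1 itself lies at chromosome 2, 173153048 to 173159273, and Mogat1 at chromosome 1, 78510991 to 78538173, both on the plus strand of GRCm38.

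Pck1 and Mogat1 fell in gain8, loss and regain, Lpin1 fell in loss and regain, and Aqp7 fell in regain, each against the control of the same age. No member was called higher in these comparisons by edgeR with all 27 libraries in the fit. DESeq2 called 1 member higher in gain8, against 7.56% of all genes called higher. The DESeq2 shares are over all 30052 genes with at least 1 read. In gain8, 2 of 9 members were called, both lower, against 21.5% of all tested genes called in either direction and 9.52% called lower. In loss 3 of 9 were called, all lower, against 20.0% of all genes in either direction and 8.24% lower. Without maintenance library 3 in the fit Aqp7 was called lower in loss as well, giving 4 of 9 against 10.8% of all genes called lower, and without that library, loss library 1 and control12 library 3 the Lpin1 call was lost, giving 2 of 9 against 2.23%. In regain 4 of 9 were called, all lower, against 21.7% in either direction and 9.23% lower. In gain4 edgeR called 0 of 9, against 5.82% of all genes (3.80% higher, 2.02% lower), although 4373 genes had an unadjusted p under 0.05, and DESeq2 called 1 member lower, against 2.94% of all genes called lower. In maintenance edgeR called 0 of 9 and 0 of 17821 genes, with 3633 genes at an unadjusted p under 0.05, while DESeq2 called 4 members higher, against 2.18% of all genes called higher. The median log2 fold change of the 9 members was -0.21 in gain8, -0.70 in loss and -0.94 in regain, beside -0.02, -0.04 and -0.01 over all genes.

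Some members separated from their controls in level without a call. In gain8 3 members lay above control8 in each library and 3 below, against 49.7% of all genes with no overlap (26.5% higher, 23.1% lower). In loss 4 lay below control12, against 37.1% of all genes (20.0% higher, 17.1% lower). In gain4 4 lay above control16 and 2 below, against 25.4% (14.1% higher, 11.3% lower). In regain 1 lay above and 4 below, against 42.8% (23.1% higher, 19.6% lower). In maintenance 0 of 9 separated, against 15.7% (8.10% higher, 7.55% lower). These counts of separated members lay from below to above the share over all genes.

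**Figure D1:**
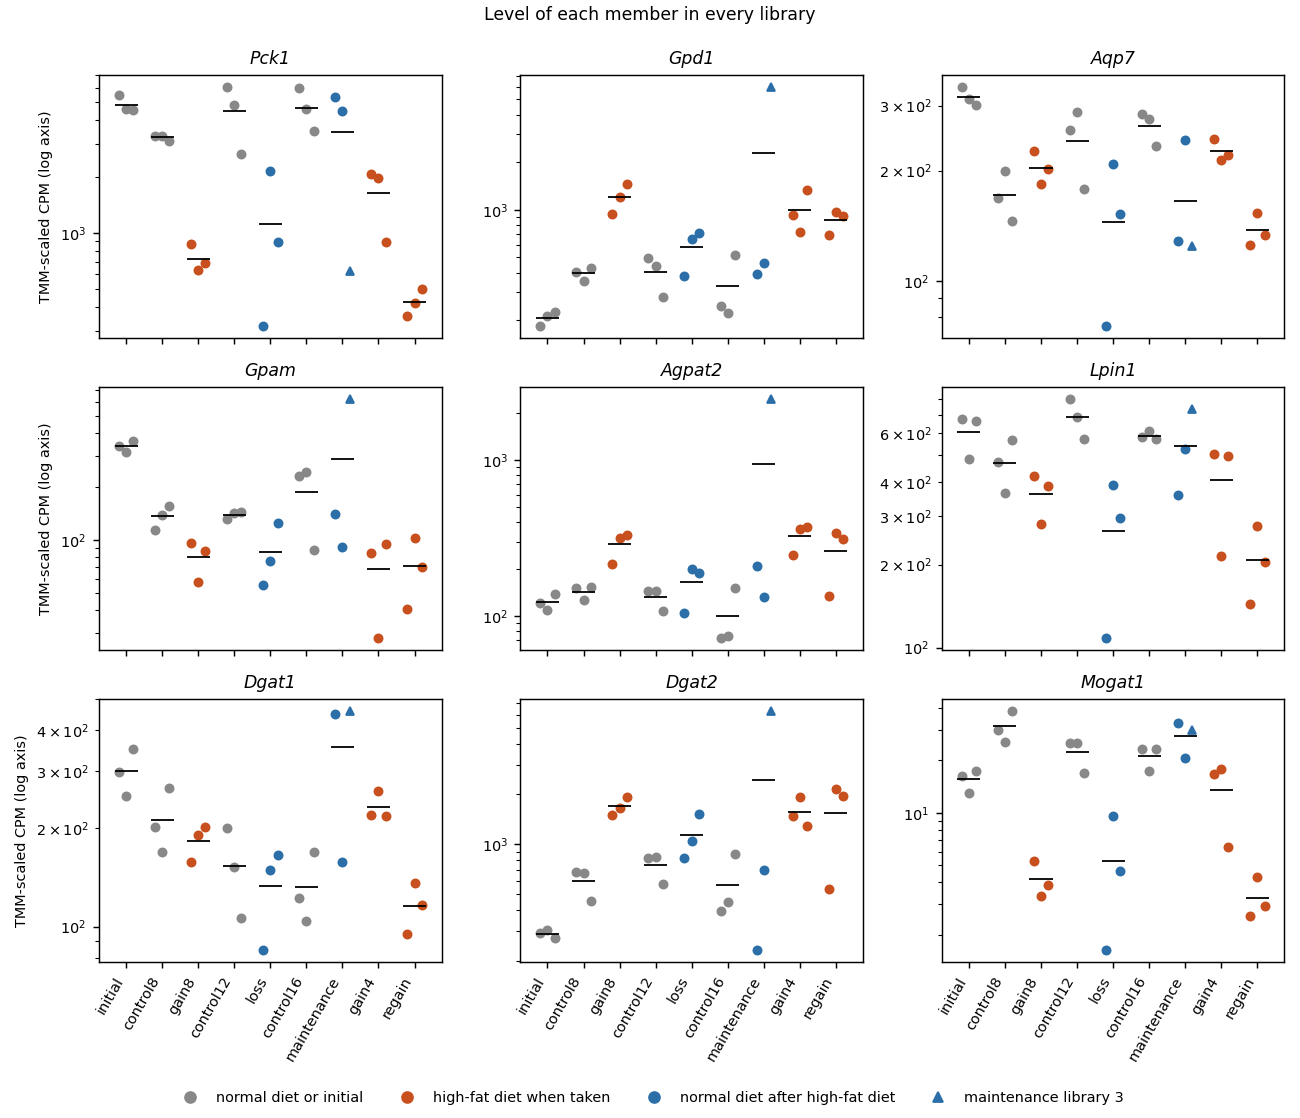
Level of each member in every library, as TMM-scaled CPM on a log axis, with 1 point per library, a black bar at each group mean and a triangle for maintenance library 3. Pck1 and Mogat1 are lower in each gain8, loss and regain library than in any library of the same-age control, and maintenance library 3 has the highest Gpd1, Agpat2, Dgat2 and Gpam level of the 27.

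Pck1 was at 3315, 3294 and 3122 CPM in control8 and at 869, 633 and 686 CPM in gain8. The groups did not overlap, and the log2 fold change was -2.15 ± 0.59 (SE, n = 3 per group, adjusted p = 0.0133). The call was lost without gain8 library 2 or library 3, where the highest adjusted p over the alternatives was 0.063. In control12 Pck1 was at 6078, 4826 and 2653 CPM, and in loss at 318, 2146 and 896 CPM. The loss libraries spread widely, with library 1 lowest, and the log2 fold change was -2.01 ± 0.59 (adjusted p = 0.0208). This call was lost without control12 library 1, loss library 1 or loss library 3, and in a fit of only these groups, with values of -2.90 to -1.57 over all alternatives.

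In control16 Pck1 was at 5940, 4582 and 3508 CPM, in gain4 at 2072, 1959 and 891 CPM and in regain at 359, 419 and 503 CPM. Neither high-fat group overlapped control16, and regain lay below gain4 in each library. Pck1 fell in regain by 3.45 on the log2 scale (SE 0.63, adjusted p = 0.000514), a call kept in each alternative run. In gain4 its log2 fold change was -1.51 ± 0.58 (adjusted p = 0.115, and 0.040 without maintenance library 3 in the fit). Between regain and gain4 the log2 fold change was -1.94 ± 0.59 (adjusted p = 0.0548, and 0.0215 without that library). In maintenance Pck1 was at 5339 and 4504 CPM in libraries 1 and 2, within the range of control16, and at 622 CPM in library 3. Its log2 fold change was -0.42 ± 0.57 (adjusted p = 0.712), and 0.118 without library 3. The initial group, at 5445, 4587 and 4565 CPM, lay above control8, with a log2 fold change of -0.59 ± 0.57 from initial to control8 (adjusted p = 0.659).

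Gpd1, by contrast, had higher levels in the high-fat groups. It was at 406, 357 and 426 CPM in control8 and at 937, 1212 and 1448 CPM in gain8, with no overlap and a log2 fold change of 1.60 ± 0.65 (adjusted p = 0.0828). In control16 it was at 246, 223 and 520 CPM, in gain4 at 924, 721 and 1330 CPM and in regain at 697, 966 and 920 CPM. All 6 of these high-fat libraries lay above the 3 controls, with log2 fold changes of 1.59 ± 0.65 in gain4 (adjusted p = 0.135) and 1.39 ± 0.65 in regain (adjusted p = 0.13). The shared estimate of spread includes maintenance library 3, where Gpd1 was at 6031 CPM, against 394 and 461 CPM in the other maintenance libraries. Without that library in the fit Gpd1 was called higher in gain8 (log2 fold change 1.59, adjusted p = 0.000948), gain4 (1.61, adjusted p = 0.00526) and regain (1.39, adjusted p = 0.00244). In loss its level was 384, 653 and 719 CPM against 498, 442 and 280 CPM in control12, groups that overlapped (log2 fold change 0.52 ± 0.64, adjusted p = 0.592).

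Aqp7, the glycerol channel, was at 285, 276 and 233 CPM in control16 and at 126, 153 and 133 CPM in regain, with no overlap. It fell by 0.94 on the log2 scale (SE 0.27, adjusted p = 0.0179). The call was lost without control16 library 1, control16 library 2, regain library 1 or regain library 3, where the highest adjusted p was 0.066. In gain8 Aqp7 overlapped control8, with a log2 fold change of 0.25 ± 0.27 (adjusted p = 0.538). In loss it was at 75.7, 208 and 152 CPM against 258, 288 and 178 CPM in control12, and the log2 fold change of -0.73 ± 0.27 had an adjusted p of 0.0629, and of 0.0477 without maintenance library 3 in the fit.

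**Figure D2:**
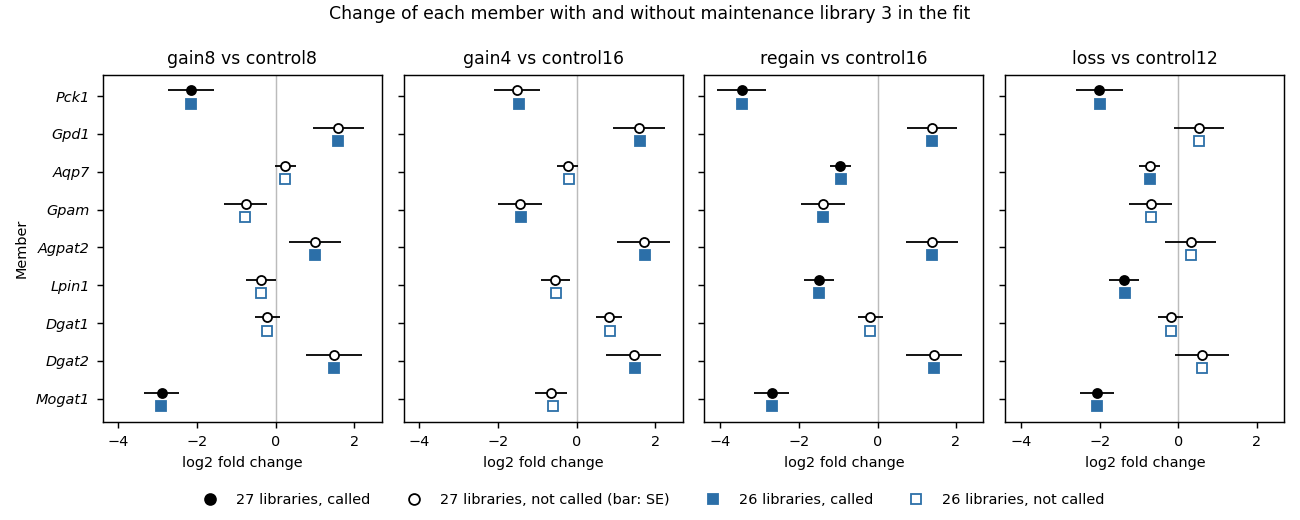
Log2 fold change of each member in 4 comparisons, from the fit of all 27 libraries (circles, bars are the SE) and from the fit without maintenance library 3 (squares), filled where the adjusted p was under 0.05. The circles and squares nearly coincide, and Gpd1, Agpat2 and Dgat2 are filled in gain8, gain4 and regain only for the squares.

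Among the esterification genes, Agpat2 and Dgat2 shared the pattern of Gpd1. Agpat2 was at 151, 127 and 153 CPM in control8 and at 215, 319 and 332 CPM in gain8, with no overlap (log2 fold change 1.01 ± 0.66, adjusted p = 0.283). In gain4 it was at 246, 359 and 369 CPM against 72.5, 74.5 and 152 CPM in control16 (log2 fold change 1.70 ± 0.67, adjusted p = 0.12). Regain, at 135, 341 and 312 CPM, overlapped control16 through its library 1 (log2 fold change 1.40 ± 0.66, adjusted p = 0.137). Without maintenance library 3, where Agpat2 was at 2469 CPM, the adjusted p values were 0.0317, 0.00548 and 0.00445.

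Dgat2 was at 680, 670 and 456 CPM in control8 and at 1501, 1649 and 1917 CPM in gain8, again with no overlap (log2 fold change 1.49 ± 0.70, adjusted p = 0.133). In gain4 it was at 1479, 1929 and 1293 CPM against 399, 447 and 868 CPM in control16 (log2 fold change 1.45 ± 0.70, adjusted p = 0.206). In regain it was at 537, 2147 and 1954 CPM, with library 1 inside the control range (log2 fold change 1.44 ± 0.70, adjusted p = 0.149). Without maintenance library 3, at 6344 CPM of Dgat2, the adjusted p values were 0.0141, 0.0294 and 0.017. Dgat1, which catalyses the same acylation, overlapped between these groups, at 203, 170 and 267 CPM in control8 and 158, 191 and 202 CPM in gain8 (log2 fold change -0.21 ± 0.32, adjusted p = 0.667). In gain4, at 220, 260 and 219 CPM, Dgat1 lay above the 123, 104 and 170 CPM of control16 (log2 fold change 0.82 ± 0.32, adjusted p = 0.123), and in regain, at 95.2, 136 and 117 CPM, it overlapped them (-0.19 ± 0.32, adjusted p = 0.713).

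Lpin1 was at 803, 689 and 571 CPM in control12 and at 108, 389 and 297 CPM in loss, with no overlap. It fell by 1.38 on the log2 scale (SE 0.38, adjusted p = 0.0142), a call lost without loss library 1, without the 3 libraries that stood apart, and in a fit of only these groups. In regain, at 144, 277 and 204 CPM against 580, 610 and 574 CPM in control16, it fell by 1.50 (SE 0.38, adjusted p = 0.00743), and each alternative kept the call. In gain8 Lpin1 overlapped control8 (log2 fold change -0.37 ± 0.37, adjusted p = 0.5). Gpam was at 114, 139 and 156 CPM in control8 and at 96.2, 57.8 and 86.3 CPM in gain8 (log2 fold change -0.77 ± 0.55, adjusted p = 0.329). In control16 Gpam ranged from 88.0 to 243 CPM, so that gain4 (-1.43 ± 0.56, adjusted p = 0.116) and regain (-1.38 ± 0.55, adjusted p = 0.0792) overlapped it. Without maintenance library 3 Gpam was called lower in both, at adjusted p = 0.0323 and 0.0176.

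Mogat1 had the lowest level of the 9 members, with at least 47 reads in each library. It was at 29.9, 25.4 and 38.5 CPM in control8 and at 5.33, 3.37 and 3.89 CPM in gain8. It fell by 2.90 on the log2 scale (SE 0.44, adjusted p = 0.000249), and each alternative kept the call. In loss it was at 1.64, 9.54 and 4.63 CPM against 25.0, 25.0 and 17.0 CPM in control12 (log2 fold change -2.08 ± 0.43, adjusted p = 0.00195), a call lost only in the fit of these groups alone. In regain it was at 2.58, 4.31 and 2.93 CPM against 23.2, 17.4 and 23.1 CPM in control16 (log2 fold change -2.69 ± 0.44, adjusted p = 0.000207). In gain4 it was at 16.6, 17.7 and 6.34 CPM, overlapping control16 (log2 fold change -0.65 ± 0.41, adjusted p = 0.342).

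Regain and gain4, both on high-fat diet for their last 4 weeks, were compared directly. Mogat1 was the 1 member called, lower in regain by 2.04 on the log2 scale (SE 0.44, adjusted p = 0.0279), against 5.49% of all genes called (4.12% higher, 1.36% lower). The call was lost without gain4 library 1, gain4 library 2 or regain library 3, and in a fit of only these groups, which called 0 genes of all those tested. Dgat1 (-1.01 ± 0.33, adjusted p = 0.0659) and Aqp7 (-0.72 ± 0.27, adjusted p = 0.112) were lower in each regain library than in any gain4 library. In all 4 members lay below gain4 in each regain library, against 25.0% of genes with no overlap (14.6% higher, 10.4% lower). Gpd1 (-0.20 ± 0.64) and Dgat2 (-0.02 ± 0.69) had values near 0. In control8 against initial, 0 of 9 members were called by edgeR, against 0.724% of all genes (0.359% higher, 0.365% lower) and with 2766 genes at an unadjusted p under 0.05. DESeq2 called 1 member lower there, against 0.842% of all genes, and the fit of only these groups called 3 higher and 3 lower, against 7.79% and 5.06%. Between these ages 3 members lay above and 3 below with no overlap, against 38.5% of genes (19.4% higher, 19.1% lower). Gpam was at 341, 314 and 365 CPM in initial and lower in control8 (-1.32 ± 0.55, adjusted p = 0.248), and Aqp7 was lower too (-0.89 ± 0.27, adjusted p = 0.126). Mogat1 (1.01 ± 0.41, adjusted p = 0.239), Gpd1 (0.94 ± 0.64, adjusted p = 0.508) and Dgat2 (1.05 ± 0.70, adjusted p = 0.495) were higher in control8.

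In loss the remaining esterification genes gave log2 fold changes of -0.70 ± 0.55 for Gpam (adjusted p = 0.379), 0.31 ± 0.65 for Agpat2 (adjusted p = 0.772), -0.20 ± 0.32 for Dgat1 (adjusted p = 0.697) and 0.60 ± 0.69 for Dgat2 (adjusted p = 0.568). In maintenance, Gpd1 (2.80 ± 0.68, adjusted p = 0.0514), Agpat2 (3.23 ± 0.71, adjusted p = 0.0508) and Dgat2 (2.09 ± 0.72, adjusted p = 0.12) were far above control16 in library 3 alone. Without that library their log2 fold changes were 0.41, 0.81 and -0.27. Dgat1 (1.43 ± 0.33, adjusted p = 0.0508) was at 448, 158 and 460 CPM, and its fold change without library 3 was 1.25 (adjusted p = 0.265). Gpam gave 0.62 ± 0.55 (-0.64 without library 3), Lpin1 -0.12 ± 0.37, Aqp7 -0.68 ± 0.27 and Mogat1 0.38 ± 0.41, with adjusted p of 0.543, 0.883, 0.174 and 0.633.

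The effect in maintenance against control16 was compared with the effect in loss against control12. Dgat1 (1.63 ± 0.46, adjusted p = 0.0304) and Mogat1 (2.46 ± 0.59, adjusted p = 0.0139) were called, both as higher in maintenance, against 8.97% of all genes (3.31% higher, 5.66% lower). Mogat1 was at 32.5, 20.7 and 29.8 CPM in maintenance, a range that overlapped control16. The Mogat1 call was kept without maintenance library 3, and the Dgat1 call was lost (adjusted p = 0.0616). The Dgat1 call was lost in 9 of 20 alternatives in all, among them the fit of only these groups and the omission of control12 library 1, loss library 1, control16 library 1, control16 library 2 or maintenance library 1, with a highest adjusted p of 0.170. The Mogat1 call was lost in 1 of 20, the fit of only these groups (adjusted p = 0.0977). For loss against gain8, each relative to its own control, edgeR called 0 members and 0 genes, with 1231 genes at an unadjusted p under 0.05, and DESeq2 called 0 members and 33 genes.

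Pck1 was then set against the mean log2 CPM of the 6 esterification genes in each library, as a description with no test. The difference was 4.17 ± 0.19 (SD, n = 3) in control8 and 2.30 ± 0.22 in gain8, 4.60 ± 0.37 in control12 and 2.95 ± 0.84 in loss. It was 4.88 ± 0.49 in control16, 3.10 ± 0.68 in gain4 and 1.97 ± 0.47 in regain. None of these groups overlapped its control. The esterification mean itself was 7.49 ± 0.15 in control8, 7.20 ± 0.13 in gain8 and 7.48 ± 0.13 in gain4. It was lowest in loss (6.78 ± 0.66) and regain (6.76 ± 0.59), where library 1 was at 6.02 and 6.11. The other libraries of loss and regain were at 6.91 to 7.25. In gain8 and gain4 the mean joins positive log2 fold changes, as of Agpat2 and Dgat2, and negative ones, as of Gpam, Lpin1 and Mogat1. In maintenance, libraries 1 and 2 were near 4.88 and 4.85 and library 3 was at -0.13.

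**Figure D3:**
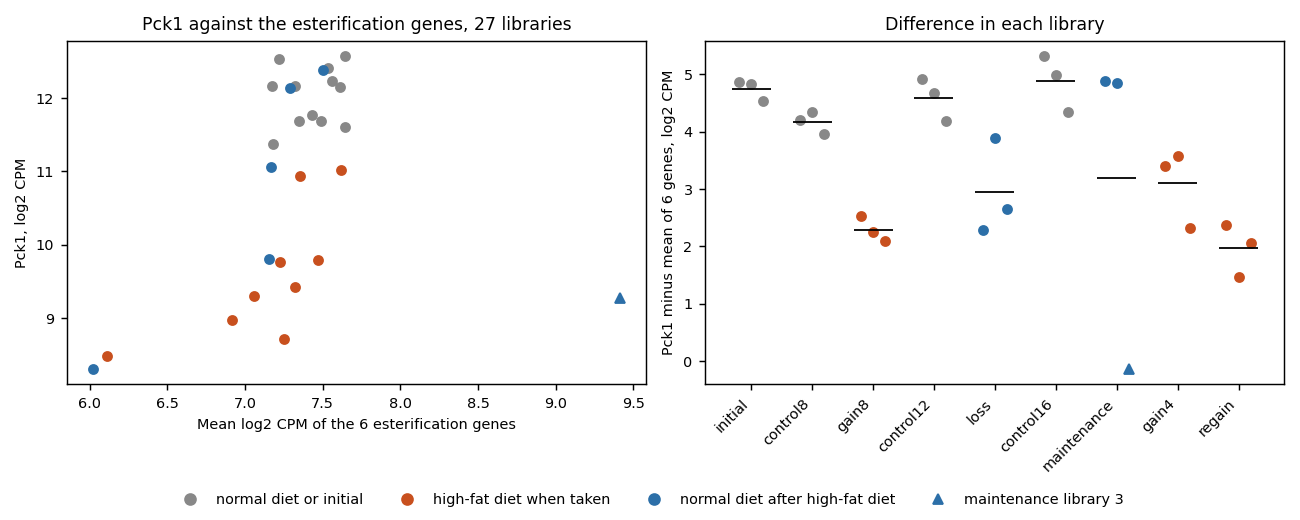
Left, log2 CPM of Pck1 against the mean log2 CPM of the 6 esterification genes in 27 libraries. Right, the difference between them in each library, with a bar at each group mean. The difference is below 4 in each gain8, gain4, loss and regain library and also in control8 library 3 (3.97). Maintenance library 3 (triangle) lies at -0.13.

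Levels between genes were compared by the authors' FPKM, which divides by gene length. In the 3 control groups and the initial group Pck1 was the highest of the 9, with a mean of 1010 FPKM in control8, 1284 in control12, 1379 in control16 and 1452 in initial. Dgat2 came next, at 286 FPKM in control8. In gain8 Dgat2 was highest at 765 ± 94.1 FPKM (SD, n = 3), followed by Gpd1 at 413 ± 88.4 and Pck1 at 216 ± 32.6. In loss Dgat2 (533 ± 203) and Pck1 (342 ± 277), and in gain4 Dgat2 (678 ± 151) and Pck1 (462 ± 173), lay within the spread of their libraries. So did Pck1 (1020 ± 765) and Dgat2 (912 ± 1219) in maintenance, where Pck1 was higher in libraries 1 and 2 and Dgat2 in library 3. Compared within a library, Dgat2 was above Pck1 per length in each gain4 library. In regain Dgat2 was at 720 ± 419 FPKM, Gpd1 at 303 ± 58.4, and Pck1 and Agpat2 did not differ beyond their spread, at 130 ± 25.2 and 129 ± 57.0. Mogat1 was lowest in each group, from 2.19 FPKM in regain to 21.4 in control8.

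**Figure D4:**
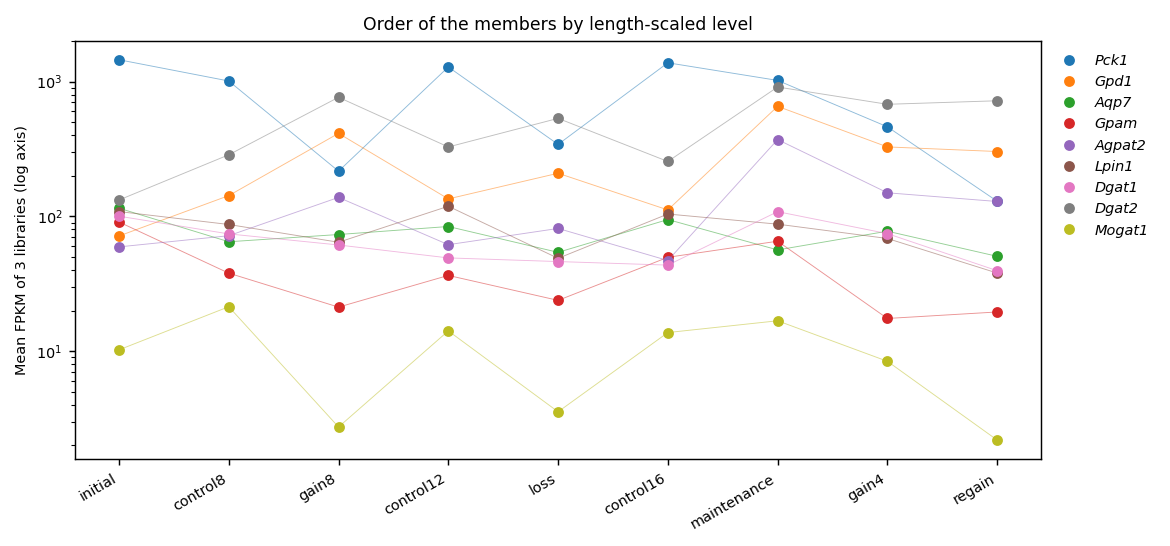
Mean FPKM of 3 libraries for each member in each group, on a log axis, with thin lines joining a gene's means. Pck1 has the highest mean in initial, control8, control12 and control16, and Dgat2 in gain8 and regain, while in loss, gain4 and maintenance these 2 genes lie within the spread of their libraries, which is not drawn.

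Across the 27 libraries log2 CPM of Pck1 was correlated with that of the other 8 members, with permutation p-values adjusted over the 8. Mogat1 had the highest coefficient (Pearson r = 0.839, adjusted p = 8e-05, Spearman rho = 0.664, adjusted p = 0.0004), and r was 0.781 without the 2 libraries farthest from the median of Pck1. Gpd1 had the lowest (r = -0.674, adjusted p = 0.00018, rho = -0.690, adjusted p = 0.000267, and -0.804 without those 2). On values centred on group means, 0 of 8 had an adjusted p under 0.05, against 7 of 8 before. Centred r was 0.576 for Mogat1 and -0.576 for Gpd1, and without maintenance library 3 it was 0.877 (adjusted p = 0.0208) and 0.147. Within the 15 libraries above and the 12 below 1000 CPM of Lars2, a transcript whose level splits the libraries across groups, r with Mogat1 was 0.767 and 0.944, and r with Gpd1 was -0.694 and -0.778. By diet, in a split chosen after seeing the data, r with Mogat1 was -0.270 (adjusted p = 0.452) within the 12 control and initial libraries and 0.801 (adjusted p = 0.00336) within the 15 libraries with any high-fat diet. For Gpd1 these were -0.289 (adjusted p = 0.452) and -0.347 (adjusted p = 0.277), so that the relation with Gpd1 was not called within either diet set. Of 11328 genes with a mean of at least 5 CPM, the 6 most like Pck1 were Grik5 (r = 0.953), Pdk2 (0.951), Ercc5 (0.949), Sctr (0.945), Ces1d (0.945) and Mycl (0.943).

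Of 32 other genes of the pathway, 31 were tested. In gain8 4 were called higher and 4 lower, against 12.0% and 9.52% of all genes. The long-chain acyl-CoA synthetase Acsl5 rose (log2 fold change 0.90 ± 0.14, adjusted p = 0.000304), as did the acyltransferases Agpat5 (0.59) and Mogat2 (2.54). Lpin3 (0.96) rose as well. Agpat6 (-0.93) and Agpat9 (-1.66), names for other glycerol-3-phosphate acyltransferases, fell, as did Tmem159 (-0.95) and Gpd1l (-0.41). In loss 4 were called higher and 2 lower, in regain 3 higher and 3 lower, in gain4 1 higher, and in maintenance 0. Of all genes, 11.8% were called higher and 8.24% lower in loss, and 12.5% and 9.23% in regain. In gain4 3.80% were called higher, and in maintenance 0. The counts for these pathway genes lay near the share over all genes. Acsl5 and Agpat5 were called higher in gain8, loss and regain alike, with Acsl5 at 0.66 in loss and 0.55 in regain. Gyk, glycerol kinase, which makes glycerol 3-phosphate directly from glycerol, rose in regain (1.85 ± 0.61, adjusted p = 0.0337). Fitm2, a protein of lipid droplet formation, fell in loss (-0.75) and regain (-1.03). Acsl4 (0.52) and Agpat4 (1.23) rose in loss, and Lpin3 (-0.80) fell there. Tmem159 (-0.77) and Ppap2a (-0.63) fell in regain. Agpat5 was the 1 gene called in gain4 (0.57).

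Of 14 regulators, 1 was called higher and 3 lower in gain8, 3 lower in loss, 2 lower in gain4 and 2 lower in regain. The shares of all genes were 12.0% higher and 9.52% lower in gain8. In loss, gain4 and regain 8.24%, 2.02% and 9.23% of all genes were called lower. The insulin receptor Insr fell in all 4, with log2 fold changes of -1.15, -0.78, -0.89 and -1.24. Irs1, an adaptor of that receptor, fell in gain8 (-1.74), gain4 (-1.41) and regain (-1.44). Ppargc1a, a coactivator of metabolic genes, fell in gain8 (-2.09 ± 0.31, adjusted p = 0.000211) and loss (-1.08). Foxo1 fell in loss (-1.15), and Cebpb was the 1 regulator called higher in gain8 (0.91).

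Adipocyte and macrophage markers moved in the same comparisons. Of 10 adipocyte markers, 3 were called lower in gain8, 5 in loss, 5 in regain and 0 in gain4. Of the 8 macrophage markers tested, 7 were called higher in gain8, loss and regain and 2 in gain4. In gain8, loss, regain and gain4, 9.52%, 8.24%, 9.23% and 2.02% of all genes were called lower. The shares called higher were 12.0%, 11.8%, 12.5% and 3.80%. The summed adipocyte level was 24951 to 27390 CPM in gain8 against 34210 to 45204 in control8, and 15691 to 22635 in regain against 37872 to 49435 in control16. In loss, at 8592 to 34298 CPM with library 1 lowest, it overlapped the 32994 to 55964 CPM of control12. The adipocyte sum of gain4, 30459 to 47454 CPM, overlapped control16. The macrophage sum was 4092 to 4715 CPM in gain8 against 1073 to 1448 in control8, and 4335 to 8516 in regain against 1445 to 1830 in control16. No marker of either list was at 0 in any library. Set against the mean log2 CPM of the adipocyte markers in the same library, Pck1 differed from its control by -1.15 in gain8, -1.01 in loss, -1.27 in gain4 and -2.09 in regain. On the same scale the esterification mean differed from its control by 0.73 in gain8, 0.65 in loss, 0.51 in gain4 and 0.83 in regain. The gain4 libraries overlapped control16 in this measure. The marker mean itself differed by -1.02 in gain8, -1.32 in loss, -0.31 in gain4 and -1.35 in regain. This marker mean includes Cfd, Retn and Plin4, which were themselves called lower in gain8, loss and regain. It also includes Cidec and Pnpla2, called lower in loss and regain. None of the 10 adipocyte markers was called lower in gain4. The part of cell composition in the changes of the 9 members was not tested.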

How the data were processed

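RNA of 27 epididymal fat samples (60 to 70 mg each) was made into TruSeq libraries, per the labels' protocols. The authors trimmed reads with Trimmomatic 0.33, used TopHat2 2.0.13 for alignment (builds named: mm10, GRCm38) and obtained gene counts with HTSeq 0.6.0; these tools come from the submitters' processing notes. The annotation and strand setting are not given in the sources used here. The deposited count table holds whole reads, with 156 rows that repeat a name used once. In the deposited FPKM, a count is scaled by exonic length and by the sum over protein-coding genes of that library, a relation found from the values.

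Genes were filtered with filterByExpr (minimum count 10, minimum total 15) and fitted in edgeR 4.0.16 (R 4.3.3) with TMM scaling, 1 mean per group over all 27 libraries, and Benjamini-Hochberg adjustment over 17821 names. Log2 CPM used a prior count of 2. Tests covered 7 pairs of groups and 2 differences between effects. Results were recomputed with DESeq2 1.42.0, RLE scaling, no filter on counts, only the groups compared, a replicate block, a term for the Lars2 set, and leaving out libraries. The scripts were tested on simulated data. Correlation p-values came from 100000 permutations.

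All 9 members are named, with up to 4 called genes per direction from each of 2 further lists. The members and lists were chosen with earlier results of these data known. Same-numbered libraries did not deviate together (correlations -0.158 to 0.310, with every pair over 0.1 in 0 comparisons), so the numbers were not taken as pairs. Pooled over genes, the spread between libraries of a group exceeded counting noise. That was not computed for the 9 members alone. Promoters were matched by symbol for 6 of the 9 members in the RefSeq table, and positions are from GENCODE on GRCm38.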

Additional observations from a re-analysis of the deposited data

Results flagged for a closer look

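Mogat1 differed between the 2 groups that ended on 4 weeks of high-fat diet: its log2 difference, regain minus gain4, was -2.04, with all 3 regain libraries below all 3 gain4 libraries. Gain4 library 3, at 6.34 CPM, was closest to regain. The call was lost in 4 of 14 alternatives, with a highest adjusted p of 0.179.

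The effect of maintenance against its control differed from that of loss against its control, by a test of the difference itself, for Dgat1 (1.63) and Mogat1 (2.46). The Dgat1 call was lost in 9 of 20 alternatives, 6 of them single libraries left out, and the Mogat1 call in 1 of 20. For Dgat1, maintenance libraries 1 and 3 were at 448 and 460 CPM and library 2 at 158 CPM. For Mogat1, the 3 maintenance libraries were at 20.7 to 32.5 CPM and the 3 loss libraries at 1.64 to 9.54 CPM.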

How the results depend on the processing

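Of the alternatives other than single libraries left out, 561 member fold changes kept their direction and side of the threshold, 64 became called, 9 lost the call and 14 changed sign. With single libraries left out, 525 kept both, 20 became called, 19 lost the call and 30 changed sign. The sign changes were in values not called with all libraries, and the cause of the changes was not tested.

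Counts of members called are given with the share of all genes called in the same direction and fit. For DESeq2 that share is over all 30052 genes with at least 1 read. It is therefore not directly comparable with the edgeR shares, which follow a filter on low counts. Members called higher in gain8 numbered 0 with all libraries, 3 in the fit of only the groups compared (19.9%), 3 without maintenance library 3 (14.0%), 3 without that library, loss library 1 and control12 library 3 (16.7%), and 1 by DESeq2 (7.56%). In gain4 those called higher were 3 without maintenance library 3 (7.80%) and 3 without the 3 libraries (10.1%), and those called lower were 2 (3.34%), 2 (4.45%) and, by DESeq2, 1 (2.94%). In regain those called higher were 1 in only the groups compared (14.9%), 3 without maintenance library 3 (14.7%) and 3 without the 3 libraries (15.9%). In loss those called lower were 0 in only the groups compared (1.90%), 4 without maintenance library 3 (10.8%) and 2 without the 3 libraries (2.23%). In maintenance those called higher were 2 with RLE scaling (128 of 17821 genes), 3 with no filter (195 of 30052) and 4 by DESeq2 (2.18%). In regain against gain4 those called lower were 0 in only the groups compared (0%), 3 without maintenance library 3 (3.51%), 5 without the 3 libraries (7.44%) and 3 by DESeq2 (2.55%). In control8 against initial those called higher were 3 in only the groups compared (7.79%) and 1 without the 3 libraries (4.11%), and those called lower were 3 (5.06%), 1 (1.76%) and, by DESeq2, 1 (0.842%). For the maintenance effect minus the loss effect those called higher were 0 in only the groups compared (0%).

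Without maintenance library 3, maintenance fold changes changed sign for Pck1 (0.12), Gpam (-0.64) and Dgat2 (-0.27), and without the 3 libraries for Pck1 (0.10), Gpam (-0.67) and Dgat2 (-0.28). For the maintenance effect minus the loss effect they did for Gpd1 (-0.12) and Dgat2 (-0.88) without maintenance library 3, and for Gpd1 (-0.14), Gpam (-0.22) and Dgat2 (-0.90) without the 3 libraries. Gpam in regain against gain4 was -0.35 with a term for the Lars2 set. With a replicate block, the loss effect minus the gain8 effect was -0.0022 for Gpam and -0.034 for Dgat1. The replicate block left 2 members called in gain8 and 4 in regain, and gave 4 in loss, where Aqp7 became called (-0.74, adjusted p = 0.047). All of these were lower, and 1602, 1605 and 1285 of 17821 genes were called lower in gain8, regain and loss.

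With single libraries left out, members called lower ranged from 1 to 2 in gain8, 1 to 4 in loss, 0 to 1 in maintenance and 0 to 2 in regain against gain4. The 1 in gain8 came without gain8 library 2 (741 of 18331 genes lower) or library 3 (835 of 18397). In loss 1 came without loss library 1 (277 of 18402), and 4 without control12 library 3 (787 of 18138) or loss library 2 (1873 of 18409). The 1 in maintenance came without maintenance library 2 (612 of 18393). The 2 in regain against gain4 came without gain4 library 3 (856 of 18407). Members called higher ranged from 0 to 4 in maintenance and from 1 to 4 for the maintenance effect minus the loss effect. The 4 in maintenance came only without maintenance library 2, which kept maintenance library 3, and 1687 of 18393 genes were called higher there. The 4 for the difference came without maintenance library 2 (1068 of 18393 genes higher) or loss library 2 (1068 of 18409). Fold changes that crossed 0 were, in gain8, Dgat1 (-0.35 to 0.0014), in loss, Dgat1 (-0.41 to 0.040), and in regain, Dgat1 (-0.33 to 0.0074). In maintenance they were Pck1 (-0.88 to 0.12), Gpam (-0.64 to 1.06), Lpin1 (-0.37 to 0.075) and Dgat2 (-0.27 to 2.59). In regain against gain4 they were Agpat2 (-0.54 to 0.019), Dgat2 (-0.33 to 0.40), Gpam (-0.31 to 0.36) and Gpd1 (-0.38 to 0.073). For the loss effect minus the gain8 effect they were Pck1 (-0.75 to 0.57), Gpam (-0.31 to 0.29) and Dgat1 (-0.20 to 0.25). For the maintenance effect minus the loss effect they were Gpd1 (-0.12 to 2.78), Aqp7 (-0.31 to 0.41) and Dgat2 (-0.88 to 1.99).

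Pck1 minus the esterification mean was lower by -2.39 in gain8 and -0.39 in control8 against initial when Mogat1 was left out of the mean. Members correlated with Pck1 at an adjusted p under 0.05 were 4 of 8 within the low Lars2 set and 0 of 8 on group-centred values. Among settings chosen after seeing the data, group-centred values gave 1 without maintenance library 3 and 0 without the 3 libraries, the control and initial libraries gave 1 and the libraries with any high-fat diet gave 1. The r with Mogat1 changed sign within the control and initial libraries (-0.270). On group-centred values r changed sign for Gpam (-0.382, and -0.0694 without the 3 libraries), and without maintenance library 3 for Gpd1 (0.147), Agpat2 (0.255) and Dgat2 (0.168).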
